A study of Homo sapiens with 8 samples.

Results

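The human genes covered here are 7 annotated genes of endogenous retroviruses: ERV3-1, ERVMER34-1, ERVW-1, ERVFRD-1, ERVH48-1, ERVK13-1 and ERVK3-1. They were chosen by name from the 60664 gene rows of a deposited FPKM table (reads scaled by gene length and library total), by a rule that uses no values, though earlier results of these data were known. For 6 of the 7 the table itself gives the symbol. ERVK13-1 has no symbol there and was found by its gene identifier, ENSG00000260565. The RNA came from THP-1 cells, an established human monocytic leukemia line, in 8 libraries that form 4 groups of 2. Parental cells were treated for 6 days with DMSO, the solvent, or with 1 µM DAC (decitabine), and DAC-resistant cells derived from the same line were treated in the same 2 ways. The labels give every library the genotype WT. By the account in the methods, the resistant line was selected over months through repeated rounds of exposure to DAC and then kept free of drug for weeks before use. It is therefore 1 selected line, and its difference from parental cells cannot be told apart from any other change acquired during selection. The 2 libraries of a group are replicates by their labels, and p-values measure only the spread between such libraries.

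Endogenous retroviruses are remnants of ancient germline infections. Most of their genes have decayed, but a few envelope frames remained intact, and some of the encoded proteins work in the placenta, where syncytins fuse trophoblast cells. In most other cells these elements are kept silent by DNA methylation and repressive chromatin. DAC is built into DNA in place of deoxycytidine and traps DNA methyltransferases, so that methylation is lost as cells divide. The comparisons below ask which of these genes DAC changed in parental and in resistant cells, and how the 2 lines differed with and without the drug.

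DAC raised 2 of the 6 members tested in parental cells, ERVH48-1 (suppressyn) by 22.9-fold and ERV3-1 by 2.04-fold in mean FPKM, and lowered none. Over all 26751 genes tested in that comparison, 38.8% were called (24.8% higher and 14.0% lower). In DAC-resistant cells DAC changed none of the 6, beside 4.27% of all genes (2.26% higher and 2.01% lower). Resistant cells with DMSO had more ERVMER34-1 and ERVK3-1 and less ERV3-1 than parental cells with DMSO, 3 of 6 beside 35.9% of all genes (18.6% higher and 17.3% lower). With DAC in both lines, ERVMER34-1 was higher and ERV3-1 and ERVH48-1 were lower in resistant cells, 3 of 6 beside 47.1% of all genes (18.9% higher and 28.1% lower). The DAC effect itself differed between the lines for ERV3-1 and ERVH48-1, 2 of 6 beside 30.6% of all genes (11.4% more positive and 19.2% more negative in resistant cells). A call here is a Benjamini-Hochberg adjusted p under 0.05 from limma, fitted on log2(FPKM + 0.1) over every gene that reached 0.1 FPKM in 2 or more libraries. ERVFRD-1 stayed under that filter and was not tested. ERVMER34-1 passed it through the resistant libraries, so the direction of its 2 calls between the lines was favoured by the filter. The split of all calls by direction depended on the scaling: higher calls were 63.9% of those with DAC in parental cells but 48.3% after quantile and 53.5% after upper-quartile scaling. They were 53.0% with DAC in resistant cells against 65.4% as TPM, 40.2% between the lines with DAC against 52.4% after quantile scaling, and 37.3% for the difference of DAC effects against 51.2% after quantile scaling. The direction of each member called was the same under all of these scalings. The 4 direct comparisons share groups of libraries and are not independent of each other.

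**Figure D1:**
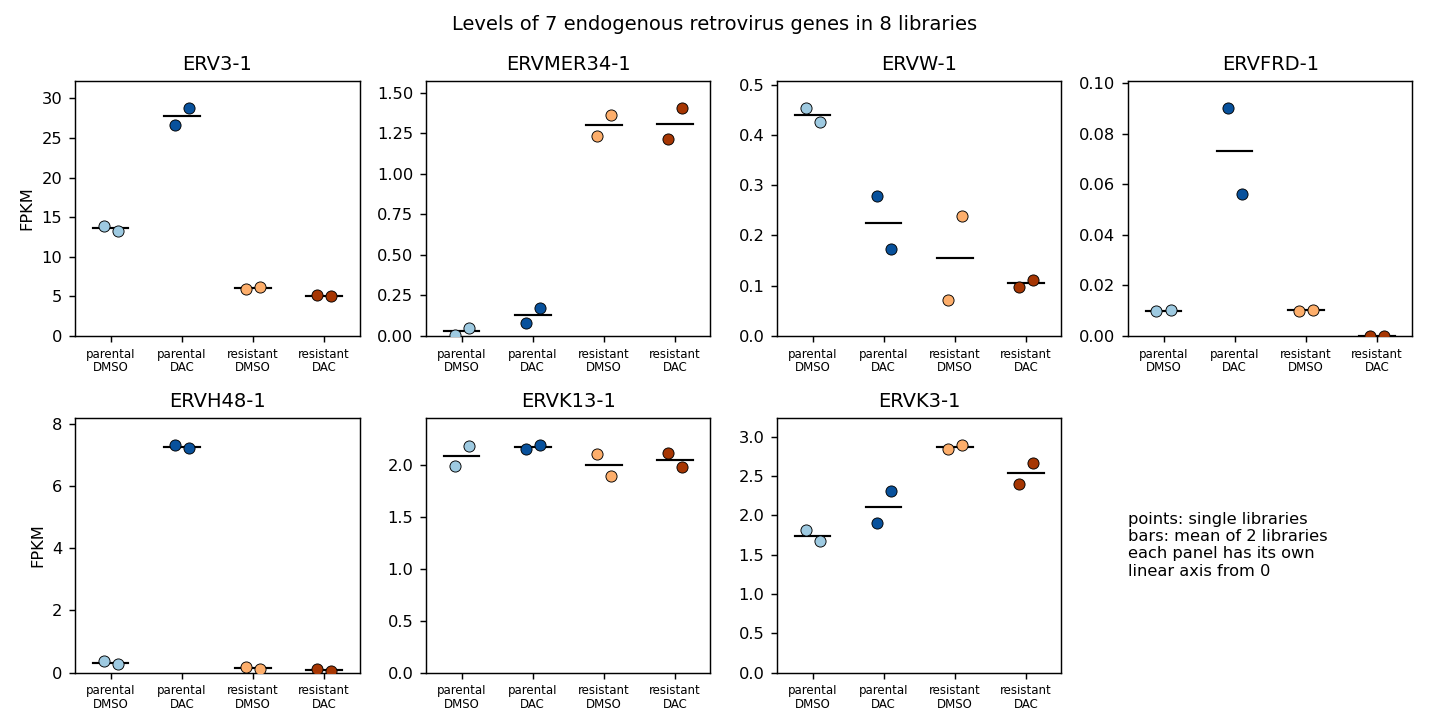
FPKM (vertical axis, linear and starting at 0 in each panel) of the 7 genes in the 4 groups; points are single libraries and bars are means of 2 libraries. ERVH48-1 stands above 7 FPKM in parental cells with DAC and below 0.4 FPKM in the other 6 libraries, while ERVMER34-1 is above 1.2 FPKM in the 4 resistant libraries and below 0.18 FPKM in the 4 parental ones.

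The libraries held 28768736 to 33484239 reads on genes, as recovered from the FPKM steps, with the lowest totals in parental cells with DAC. All 10 monocytic markers listed passed the filter, among them SPI1, a myeloid transcription factor, at 67.4 to 129 FPKM. DAC raised 8 of these 10 markers in parental cells and lowered CD33, beside 24.8% of all genes higher and 14.0% lower. In resistant cells with DMSO 6 of the 10 were lower and 0 higher than in parental cells (limma; 7 had an unadjusted p under 0.05), beside 17.3% of all genes lower and 18.6% higher. CD14, a monocyte surface receptor, was at 1.45 and 1.58 FPKM in parental DMSO libraries, 19.0 and 20.8 in parental DAC libraries, 0.75 and 0.989 in resistant cells with DMSO and 0.837 and 1.37 with DAC. Monocytic markers thus moved with the same groups as several members, and their part in the results was not tested. Among lymphoid and erythroid markers, HBB reached 2.94 FPKM (121 reads) in replicate 1 of resistant cells with DMSO. In replicate 2 of that group it was at 0.153 FPKM (6 reads), and in the other groups at 0 to 0.781 FPKM. CD3E, MS4A1 and HBA1 stayed at or below 0.488 FPKM.

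Promoter sequences are shown for the 3 members called between the resistant and the parental line with DMSO and, as a contrast, for ERVK13-1, whose level did not pass the test in any comparison. They come from RefSeq (GRCh38.p14), which held 5 of the 7 members, and run from 250 bases before to 50 bases after an annotated start. For ERVK13-1 that start lies inside the annotated gene, away from its upstream end. Capitals mark the dinucleotide CG, the site at which DNA methyltransferases act. Methylation was not measured in these files. The windows are chr7:65006638-65006937 (minus strand) for ERV3-1, chr4:52751376-52751675 (minus strand) for ERVMER34-1, chr19:58305127-58305426 (plus strand) for ERVK3-1 and chr16:2673390-2673689 (minus strand) for ERVK13-1.
ERV3-1: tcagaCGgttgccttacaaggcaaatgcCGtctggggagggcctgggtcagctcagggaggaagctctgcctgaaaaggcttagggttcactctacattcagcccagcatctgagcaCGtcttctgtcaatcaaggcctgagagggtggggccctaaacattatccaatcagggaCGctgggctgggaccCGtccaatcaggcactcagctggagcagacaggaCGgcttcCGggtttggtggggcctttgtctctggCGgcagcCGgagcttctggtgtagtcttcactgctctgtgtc
ERVMER34-1: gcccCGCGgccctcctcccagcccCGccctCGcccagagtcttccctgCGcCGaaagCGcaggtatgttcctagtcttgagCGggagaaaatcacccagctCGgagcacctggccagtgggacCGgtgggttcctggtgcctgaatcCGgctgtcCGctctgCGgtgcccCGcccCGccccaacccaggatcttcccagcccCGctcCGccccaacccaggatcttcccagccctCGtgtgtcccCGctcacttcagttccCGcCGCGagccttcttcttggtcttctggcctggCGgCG
ERVK3-1: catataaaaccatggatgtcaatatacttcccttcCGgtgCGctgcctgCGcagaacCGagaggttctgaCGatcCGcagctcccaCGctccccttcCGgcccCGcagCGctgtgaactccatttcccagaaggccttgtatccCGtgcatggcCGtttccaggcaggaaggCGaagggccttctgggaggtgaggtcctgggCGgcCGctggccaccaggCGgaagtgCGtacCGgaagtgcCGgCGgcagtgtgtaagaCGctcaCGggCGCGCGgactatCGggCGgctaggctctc
ERVK13-1: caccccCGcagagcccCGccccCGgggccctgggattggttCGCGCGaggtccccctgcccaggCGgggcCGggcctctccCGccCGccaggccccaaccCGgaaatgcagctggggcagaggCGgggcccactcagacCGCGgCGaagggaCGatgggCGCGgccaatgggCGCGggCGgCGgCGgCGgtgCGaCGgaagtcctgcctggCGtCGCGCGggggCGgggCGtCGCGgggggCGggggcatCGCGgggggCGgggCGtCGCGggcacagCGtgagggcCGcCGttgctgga

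The ERV3-1 window held 9 CG, fewer than the median of 14 over the 35116 RefSeq windows of this length, and 58.4% of these held as many or more. ERVMER34-1 held 24 CG, a number that 33.9% of windows reached, and ERVK3-1 held 27, which 28.2% reached. ERVK13-1, at 44 CG, was among the 4.2% of windows with the most. Its window lies inside the annotated gene, whose upstream end on the minus strand is at 2682398. It may therefore not be the promoter of the RNA counted here. A further annotated start of ERV3-1, at chr7:64999393-64999692, held 4 CG, and the ERVW-1 window at chr7:92471375-92471674 held 5. Both of these windows also lie inside the annotated gene, away from its upstream end. The letters TATAAA, searched on both strands, stood once in the windows of ERVK3-1, ERVW-1 and the further ERV3-1 start, and in 11.53% of all windows.

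ERVH48-1 (ENSG00000233056, chr21:42916803-42925630, minus strand) encodes suppressyn, a secreted envelope protein that binds the receptor of syncytin-1 and blocks cell fusion. Parental cells with DMSO had 0.362 and 0.272 FPKM (32 and 23 reads), and parental cells with DAC had 7.31 and 7.21 FPKM (561 and 553 reads). Resistant cells had 0.170 and 0.119 FPKM with DMSO (15 and 10 reads) and 0.112 and 0.0468 FPKM with DAC (10 and 4 reads). Both DAC-treated parental libraries stood far above the other 6, and among the other 6 the parental libraries were above the resistant ones. The log2 fold change with DAC in parental cells was 4.15 (SE 0.279, limma adjusted p = 0.00014). In resistant cells it was -0.46 (95% interval -1.15 to 0.22, adjusted p = 0.50), and the difference between the 2 DAC effects was -4.61 (adjusted p = 0.00057). With DAC in both lines, the fitted log2 difference for resistant against parental cells was -5.38 (adjusted p = 3.3e-05). Without the added 0.1 FPKM, the mean of parental cells was 91.3 times that of resistant cells, a ratio that rests on 14 reads in the 2 resistant libraries. ERVH48-1 was called in these 3 comparisons under every alternative, but the sizes depend on the number added before taking logs. With a pseudocount of 1 they were 2.65 for DAC in parental cells, -2.74 for the difference of effects and -2.94 between the lines with DAC, and with voom on the recovered reads they were 4.50, -5.41 and -6.52. With DMSO the difference of -0.77 between the lines did not pass the test (adjusted p = 0.083).

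ERVW-1 (ENSG00000242950, chr7:92468380-92477986, minus strand) encodes syncytin-1, the fusogen whose receptor suppressyn occupies. Its levels were low throughout: 0.453 and 0.425 FPKM in parental cells with DMSO (88 and 79 reads), and 0.279 and 0.172 FPKM with DAC (47 and 29 reads). Resistant cells had 0.0724 and 0.239 FPKM with DMSO (14 and 44 reads) and 0.0971 and 0.112 FPKM with DAC (19 and 21 reads). The 2 parental DMSO libraries were the highest of the 8, and resistant cells with DMSO overlapped both remaining groups. No comparison of ERVW-1 passed the test: the log2 fold change was -0.75 for DAC in the parental line (limma adjusted p = 0.20), -0.24 with DAC in resistant cells (adjusted p = 0.85) and -1.16 for resistant against parental cells with DMSO (95% interval -2.12 to -0.19, adjusted p = 0.068). The last value passed when replicate 2 of resistant cells with DMSO, the higher library of its group, was left out (-1.64, adjusted p = 0.028), and without replicate 1 of that group it was -0.67 (adjusted p = 0.24). It also passed with voom on the recovered reads (-1.74, adjusted p = 0.016) and with a pseudocount of 1 (-0.32, adjusted p = 0.037).

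ERVFRD-1 (ENSG00000244476, chr6:11102489-11111725, minus strand) encodes syncytin-2, the other fusogenic envelope of the placenta. Parental cells gave 1 and 1 reads with DMSO and 8 and 5 with DAC, and resistant cells gave 1 and 1 with DMSO and 0 and 0 with DAC. These reads correspond to 0.00975 and 0.0102 FPKM, 0.0899 and 0.0562 FPKM, 0.00979 and 0.0103 FPKM, and 0 FPKM. Parental cells with DAC were the highest group, and their share of library reads was 7.32 times that with DMSO, with an exact 95% interval of 1.66 to 66.8 that covers counting error only. The 0 reads of resistant cells with DAC allow up to 0.0291 and 0.0303 FPKM, taking 3 reads as the limit.

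ERV3-1 (ENSG00000213462, chr7:64990356-65006743, minus strand) carries the envelope frame of an ERV3 provirus and was the most abundant of the 7 in FPKM in every library. Parental cells had 13.9 and 13.2 FPKM with DMSO (2217 and 2019 reads) and 26.7 and 28.7 FPKM with DAC (3689 and 3971 reads). Resistant cells had 5.91 and 6.18 FPKM with DMSO (938 and 934 reads) and 5.13 and 5.05 FPKM with DAC (823 and 778 reads). No 2 groups overlapped, and the order was parental with DAC, parental with DMSO, resistant with DMSO, resistant with DAC. In parental cells DAC raised ERV3-1 by 1.02 on the log2 scale (SE 0.0511, limma adjusted p = 4.7e-05). In resistant cells the change was -0.24 (95% interval -0.37 to -0.12, adjusted p = 0.063). That value passed with a filter of 1 FPKM (adjusted p = 0.037). The difference between the 2 DAC effects was -1.27 (adjusted p = 0.00014). Resistant cells with DMSO held 44.5% of the parental level, a log2 difference of -1.15 (adjusted p = 3.3e-05), and with DAC in both lines the difference was -2.42 (adjusted p = 1.7e-06).

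ERVMER34-1 (ENSG00000226887, chr4:52722618-52751586, minus strand) encodes HEMO, an envelope protein that is shed from the cell surface. Parental cells had 0.00784 and 0.0492 FPKM with DMSO (1 and 6 reads) and 0.0814 and 0.172 FPKM with DAC (9 and 19 reads). Resistant cells had 1.24 and 1.36 FPKM with DMSO (157 and 165 reads) and 1.22 and 1.40 FPKM with DAC (156 and 173 reads). All 4 resistant libraries were above all 4 parental ones, and the 2 resistant groups overlapped. Only 1 parental library reached 0.1 FPKM, so ERVMER34-1 passed the filter through the resistant libraries. A gene kept on those grounds was likely to be higher in resistant cells. The direction of its difference between the lines was thus favoured by the filter and is no separate result. With DMSO the log2 difference between resistant and parental cells was 3.46 (SE 0.312, limma adjusted p = 0.00044), and with DAC it was 2.66 (adjusted p = 0.00090). The size depends on the number added before taking logs, since parental cells with DMSO had 7 reads in all: it was 1.16 with a pseudocount of 1 and 5.33 with 0.01, and the ratio of shares of library reads was 46.1 (exact 95% interval 22.1 to 116, counting error only). The change with DAC in parental cells, 0.81, did not pass the test (95% interval 0.04 to 1.58, adjusted p = 0.094), nor did that in resistant cells, 0.01 (95% interval -0.76 to 0.77, adjusted p = 1.0). The difference between these 2 effects, -0.80, did not pass either (adjusted p = 0.24). The change with DAC in parental cells was 0.13 to 2.31 over the alternatives and 0.52 to 1.10 when 1 library was left out. The difference between the effects was -2.30 to -0.13 over the alternatives, and the difference between the lines with DAC was 1.04 to 3.41.

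ERVK3-1 (ENSG00000142396, chr19:58305374-58316812, plus strand) is a protein-coding gene built on a HERV-K3 element. Parental cells had 1.81 and 1.67 FPKM with DMSO (288 and 255 reads) and 1.9 and 2.30 FPKM with DAC (262 and 318 reads). Resistant cells had 2.84 and 2.89 FPKM with DMSO (451 and 437 reads) and 2.40 and 2.67 FPKM with DAC (385 and 411 reads). The 4 resistant libraries were above the 4 parental ones, and within each line the DMSO and DAC libraries did not overlap. With DMSO the log2 difference between resistant and parental cells was 0.69 (SE 0.120, limma adjusted p = 0.0063). With DAC it was 0.27 and did not pass (adjusted p = 0.12), but it passed when replicate 2 of parental cells with DAC was left out (0.40, adjusted p = 0.046), was 0.13 without replicate 1 of that group (adjusted p = 0.39), and passed under TPM or quantile scaling (0.39 and 0.45, adjusted p = 0.044 and 0.024). The DAC effects, 0.25 in parental and -0.17 in resistant cells, did not pass (adjusted p = 0.16 and 0.57). Their difference, -0.43 (adjusted p = 0.12), passed, among the alternatives, only when replicate 1 of parental cells with DAC was left out (-0.56, adjusted p = 0.049). Leaving out 1 library gave 0.12 to 0.39 for the DAC effect in parental cells and -0.25 to -0.099 for that in resistant cells. Of the 6117 annotated exon bases of ERVK3-1 (its recovered reads fit a length of 5023), 3315 are shared with other annotated genes, 3025 of them with an antisense gene, ENSG00000283103. The strand setting of the counting is not given in the sources used here, so reads in that stretch cannot be assigned with certainty.

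ERVK13-1 (chr16:2660348-2682398, minus strand), a long noncoding RNA with HERV-K13 sequence, had nearly the same level in all 8 libraries. It stood at 1.99 and 2.18 FPKM in parental DMSO libraries, 2.15 and 2.19 in parental DAC libraries, 2.11 and 1.89 in resistant cells with DMSO and 2.12 and 1.98 with DAC. The groups overlapped except parental cells with DAC against resistant cells with DAC or with DMSO, and 653 to 774 reads stood behind each value. The log2 fold changes were 0.06 for DAC in the parental line, 0.03 for DAC in the resistant line, -0.06 between the lines with DMSO and -0.08 with DAC (limma adjusted p = 0.72, 0.95, 0.71 and 0.56). The 95% intervals of these 4 changes lay between -0.33 and 0.30.

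**Figure D2:**
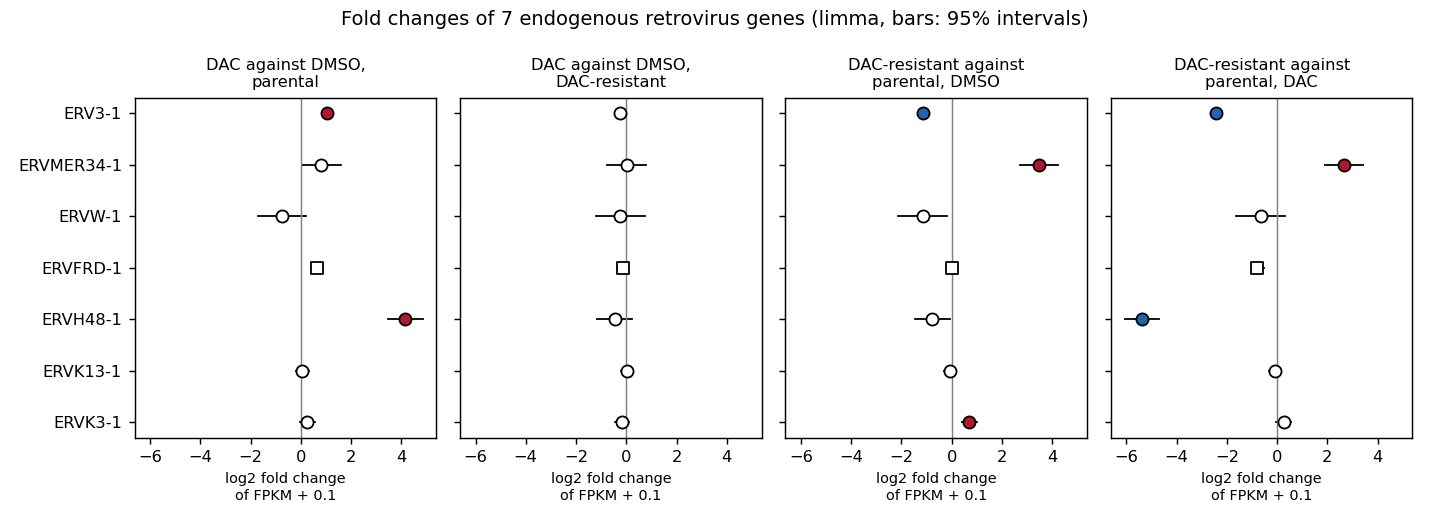
Log2 fold changes of FPKM + 0.1 (horizontal axis) of the 7 genes in the 4 direct comparisons; circles are limma estimates, bars are 95% intervals, red marks higher and blue lower calls at an adjusted p under 0.05, and the square of ERVFRD-1 marks a gene under the filter. DAC moved ERVH48-1 by 4.15 and ERV3-1 by 1.02 in parental cells, and no point is coloured for DAC in resistant cells.

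Over the 6 members tested, the log2 fold changes for DAC had a median of 0.53 in parental cells, beside 0.11 over all genes, and of -0.21 in resistant cells, beside 0. Between the lines it was -0.41 beside -0.02 with DMSO and -0.37 beside -0.18 with DAC. For the 0 calls with DAC in resistant cells, 1 member (ERV3-1) had an unadjusted p under 0.05 with limma, and voom on recovered reads called 0 as well. An exact permutation test of 2 libraries against 2 cannot give a two-sided p below 0.333, so single genes were judged from the limma fit across all genes.

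Each member was set beside the genes that overlap it or lie nearest on either side. ZNF117, a zinc finger gene on the same strand, overlaps ERV3-1 and shares 825 of its 5027 exon bases. It stood at 25.8 and 24.9 FPKM in parental DMSO libraries, 45.4 and 43.4 in parental DAC libraries, 12.1 and 12.7 in resistant cells with DMSO and 12.7 and 13.0 with DAC. ZNF117 thus had the order of groups seen for ERV3-1 in parental cells, while its 2 resistant groups were nearly level. DAC raised it by 0.81 in parental cells (limma adjusted p = 3.8e-05), and resistant cells with DMSO had a log2 difference of -1.03 (adjusted p = 1.9e-05). The ratio of ERV3-1 to ZNF117 in FPKM was 0.539 and 0.532 in parental DMSO libraries, 0.588 and 0.662 in parental DAC libraries, 0.487 and 0.488 in resistant cells with DMSO and 0.404 and 0.390 with DAC. The next genes on either side, ZNF273 at 59375 bases and ZNF92 at 367056 bases, changed by -0.04 and -0.10 with DAC in parental cells (adjusted p = 0.74 and 0.32). How reads in shared exons were counted is not given in the sources used here, and the share of ERV3-1 reads that could come from ZNF117 was not tested.

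ERVMER34-1 lies across DANCR, a long noncoding RNA on the opposite strand with which it shares 127 exon bases. DANCR stood at 1.51 and 1.35 FPKM in parental DMSO libraries, 1.06 and 1.23 in parental DAC libraries, 3.39 and 3.27 in resistant cells with DMSO and 3.67 and 3.80 with DAC. It was higher in resistant cells by 1.17 with DMSO and 1.62 with DAC on the log2 scale (limma adjusted p = 0.00049 and 8.9e-05), in the direction of ERVMER34-1 and by less. LINC01618, which shares 221 exon bases, was at 0 to 0.0248 FPKM, and USP46, the nearest tested gene outside, did not pass in any comparison. Without the strand setting of the counting, reads in the exon bases shared with DANCR and LINC01618 cannot be assigned with certainty. The values of ERVMER34-1 and DANCR are therefore not fully separate measurements.

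NDUFV3, a subunit gene of respiratory complex I that lies 3499 bases from ERVH48-1, was at 8.96 to 11.1 FPKM and changed by -0.04 in DAC-treated parental cells (limma adjusted p = 0.74). On the other side PKNOX1, a homeobox gene 48880 bases away, rose by 0.49 (adjusted p = 0.017). Neither matched the change of 4.15 of ERVH48-1 in size. KCTD5, 125 bases from ERVK13-1, was higher by 0.48 in resistant cells with DMSO (adjusted p = 0.00067), and PDPK1, on the other side, rose by 0.34 in DAC-treated parental cells (adjusted p = 0.0027), 2 calls where ERVK13-1 had none.

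The zinc finger genes on both sides of ERVK3-1 were higher in resistant cells too. ZNF8, 2583 bases away, had a log2 difference of 1.28 with DMSO (limma adjusted p = 0.00013), and ZSCAN22, 10182 bases away, of 1.05 (adjusted p = 0.00043), against 0.69 for ERVK3-1 itself. The antisense gene ENSG00000283103 had 0.26 (adjusted p = 0.40). The noncoding gene across ERVW-1, ENSG00000244055, was lower in resistant cells with DMSO (log2 difference -1.07, adjusted p = 0.00085), and its neighbour GATAD1 did not pass there. Around ERVFRD-1, SMIM13 and ELOVL2 were higher in resistant cells with DMSO by 1.95 and 1.88 (adjusted p = 1.0e-05 and 0.00042). Among the 18 neighbours tested, 4 rose and 4 fell with DAC in the parental line beside 38.8% of all genes called. In resistant cells 0 were called with DAC, beside 4.27%, and 3 had an unadjusted p under 0.05 by limma. The 8 calls in the parental line became 4 without replicate 1 of parental cells with DMSO or with DAC, 3 with the compared libraries alone, 5 without a filter and 0 under an unadjusted p of at most 0.01 with a log2 change of at least 1. Resistant cells with DMSO had 7 higher and 3 lower, beside 35.9% of all genes.

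The table also lists repeat families, each a sum over all copies of an element in the genome, so the 14 families of the members' own elements were read beside the single genes. Reads of a member may have been counted in both rows. HERV3-int, the internal part of the ERV3 family, was at 2.36 and 2.29 FPKM in parental DMSO libraries, 5.00 and 5.15 in parental DAC libraries, 2.50 and 2.40 in resistant cells with DMSO and 2.49 and 2.59 with DAC. It rose by 1.13 in DAC-treated parental cells (limma over 1165 families, adjusted p = 6.1e-05), close to the 1.02 of ERV3-1. Between the lines with DMSO it differed by 0.07 (adjusted p = 0.22), or by -0.11 when families were rescaled by gene reads, where ERV3-1 differed by -1.15. LTR4, the long terminal repeat of that family, rose by 1.62 with DAC in parental cells and was higher by 0.66 in resistant cells with DMSO (adjusted p = 6.1e-05 and 0.0015), the opposite direction to ERV3-1. Families and genes were scaled by different totals and had different numbers added before taking logs (0.1 FPKM for genes, and 1 on the deposited scale of FPKM times 1000 for families), and no test compares a family with its member.

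HERVH48-int was at 1.29 and 1.11 FPKM in parental DMSO libraries and 1.58 and 1.56 in parental DAC libraries, a rise of 0.39 (limma adjusted p = 0.038). The long terminal repeat MER48 rose by 0.94 (adjusted p = 0.015). Both rose by less than the 4.15 of ERVH48-1. HERVK3-int, the family of ERVK3-1, rose by 0.62 in DAC-treated parental cells (adjusted p = 0.00026) and was higher by 0.42 in resistant cells with DMSO (adjusted p = 0.0011), and its repeat LTR3 was higher there by 0.78 (adjusted p = 0.0079). HERV17-int and LTR17, the families of ERVW-1, were lower in resistant cells with DMSO (log2 differences -0.69 and -0.74, adjusted p = 0.0036 and 0.0079). MER34-int, beside ERVMER34-1, differed by 0.47 and did not pass (adjusted p = 0.086), and MER34 was lower (-0.62, adjusted p = 0.025). MER50 of ERVFRD-1 was lower (-0.73, adjusted p = 0.021), and HERVK13-int did not pass in any comparison. Sizes of these low families depend on the number added. With FPKM + 1 the rises with DAC in parental cells were 0.22 for HERVH48-int, 0.40 for MER48 and 0.39 for HERVK3-int, all still called. The differences between the lines with DMSO were then 0.26 for HERVK3-int, -0.18 for HERV17-int, -0.18 for LTR17, -0.13 for MER34 and -0.13 for MER50, all still called, and 0.14 for MER34-int, not called. Rescaled by gene reads, HERVK3-int differed by 0.24 and MER34-int by 0.29 between the lines.

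DAC called 6 of these 14 families in parental cells, 5 higher and LTR13 lower, beside 23.6% of all families. It called 0 in resistant cells, where 0% of all families passed (limma; 2 of the 14 had an unadjusted p under 0.05). Between the lines with DMSO 7 of the 14 were called, beside 29.5% of all families, and with DAC 7, beside 36.0%. The DAC effect differed between the lines for 4 of the 14, beside 13.3% of all families.

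The proteins that envelope proteins need were read from a list of 9 receptors, proteases and regulators, of which 8 passed the filter. SLC1A5, the amino acid transporter that serves syncytin-1 as receptor and is bound by suppressyn, was at 64.3 and 68.2 FPKM in parental DMSO libraries and 42.5 and 46.1 in parental DAC libraries. In resistant cells it was at 79.7 and 78.8 FPKM with DMSO and 94.8 and 90.6 with DAC. No 2 groups overlapped, and the group with the most ERVH48-1 had the least SLC1A5. SLC1A5 fell by 0.58 on the log2 scale with DAC in parental cells (limma adjusted p = 0.00035), and its difference between the lines was 0.26 with DMSO and 1.06 with DAC (adjusted p = 0.0088 and 2.1e-05). SLC1A4, a related transporter that syncytin-1 can also use, fell by 0.59 on the log2 scale with DAC in parental cells (adjusted p = 6.3e-05). MFSD2A, the receptor of syncytin-2, was at 53.1 to 65.1 FPKM in all libraries and fell by 0.27 on the log2 scale with DAC in resistant cells (adjusted p = 0.0043). FURIN, the protease that cleaves envelope precursors, rose by 0.85 in DAC-treated parental cells (adjusted p = 0.00053).

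PPARG and RXRA, nuclear receptors linked to syncytin expression in trophoblast, were both higher in resistant cells with DMSO, by 1.86 and 1.44 on the log2 scale (limma adjusted p = 6.0e-05 and 7.7e-06). PPARG stood at 0.874 and 0.829 FPKM in parental and 3.28 and 3.43 FPKM in resistant cells with DMSO. GCM1, the trophoblast factor that activates syncytin genes, stayed under the filter at 0 to 0.0785 FPKM. Among the 8 tested, 2 rose and 4 fell with DAC in the parental line, beside 38.8% of all genes called, and 1 fell in the resistant line, beside 4.27%. Resistant cells with DMSO had 5 higher and 1 lower, beside 35.9%. Under an unadjusted p of at most 0.01 with a log2 change of at least 1, the 6 calls in the parental line became 0 and the 6 between the lines became 2, and after quantile scaling the latter were 4.

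Other retroviral and retrotransposon genes were counted in the same way. Of 7 further genes named ERV, 1 passed the filter and was not called in any comparison. ERVV-1 had 5 and 9 reads in parental cells with DAC and 0 in the other 6 libraries. Of 26 listed genes derived from LTR retrotransposons or retroviruses, most of them from gag (ASPRV1 and NYNRIN come from other retroviral genes), 20 were tested, and 9 rose and 3 fell with DAC in the parental line, beside 24.8% and 14.0% of all genes. Of the 9 that rose, 3 (PNMA5, CCDC8 and LDOC1) passed the filter only through the parental DAC libraries, so that a gene kept on those grounds had to be higher there. PNMA5 went from 0.101 and 0.0577 FPKM to 36.7 and 34.6 FPKM, a rise of 7.65 (limma adjusted p = 8.8e-06), and had 0 to 2 reads in the resistant libraries. The size of that rise depends on the 0.1 FPKM added before taking logs, since PNMA5 was near that level in parental DMSO libraries. RTL5 rose by 2.47 (adjusted p = 0.00064), ARC, a neuronal capsid-forming protein, went from 0 and 1 to 41 and 35 reads, and CCDC8 from 0 and 0 to 36 and 27 reads. CCDC8 had 0 reads in all 4 resistant libraries, whereas ARC had 22 and 25 reads in resistant cells with DMSO and 9 and 28 with DAC. In resistant cells DAC called 0 of the 20, beside 4.27% of all genes (limma; 3 had an unadjusted p under 0.05). The 12 calls in the parental line became 8 with a filter of 1 FPKM and 8 under the rule of an unadjusted p with a minimum change.

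Resistant cells with DMSO had 8 of the 20 higher and 2 lower, beside 35.9% of all genes called. These 10 calls became 6 without replicate 2 of resistant cells with DMSO and 5 under an unadjusted p of at most 0.01 with a log2 change of at least 1. Of the 8 higher, 1 (RTL9) passed the filter only through the resistant DMSO libraries. PEG10, an imprinted gag-derived gene needed in the placenta, had 3 and 3 reads in the parental DMSO libraries, 48 and 52 in the parental DAC libraries, 424 and 420 in the resistant DMSO libraries and 356 and 290 in the resistant DAC libraries. As for ERVMER34-1, all 4 resistant libraries were above all 4 parental ones. The log2 difference of PEG10 with DMSO was 4.23 (limma adjusted p = 4.5e-05), and RTL6 was lower (log2 difference -1.92, adjusted p = 3.0e-05). The size for PEG10 depends on the 0.1 FPKM added before taking logs. Its mean was 0.0145 FPKM in parental and 2.05 FPKM in resistant cells with DMSO.

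All 19 genes of a list of DNA methylation and retroviral silencing factors were tested, and nearly all changes were small. DNMT1, the maintenance methyltransferase that DAC traps, was at 21.9 and 22.2 FPKM in parental DMSO libraries, 26.2 and 26.7 in parental DAC libraries, 23.2 and 23.1 in resistant cells with DMSO and 17.5 and 17.3 with DAC. With DAC DNMT1 rose by 0.26 in parental cells and fell by 0.41 on the log2 scale in resistant cells (limma adjusted p = 0.00049 and 0.0027). TRIM28, the corepressor of zinc finger proteins, rose by 0.25 in DAC-treated parental cells (adjusted p = 0.0076), and SETDB1, its histone methyltransferase, was lower in resistant cells with DMSO (log2 difference -0.24, adjusted p = 0.029). The sole change of at least 1 on the log2 scale was that of CBX5, a heterochromatin protein, at 1.33 for resistant against parental cells with DAC (adjusted p = 1.2e-06). With DAC 6 of the 19 rose and 5 fell in the parental line beside 38.8% of all genes called, and 5 fell in the resistant line, beside 4.27%. Resistant cells with DMSO had 9 higher and 5 lower, beside 35.9%. The 11 calls in the parental line became 7 without replicate 2 of parental cells with DMSO. A rule of an unadjusted p of at most 0.01 with a log2 change of at least 1 called 0 in the parental line and 0 between the lines with DMSO, where 11 and 14 passed by limma's adjusted p.

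Placental marker genes were largely without reads. Of 16 listed, 8 had 0 reads in all libraries, among them CGA, HSD3B1 and PSG1, and 5 passed the filter. CYP19A1, the aromatase, rose by 2.53 with DAC in parental cells and was higher by 2.26 in resistant cells with DMSO (limma adjusted p = 0.00016 and 0.00025). TFAP2A was higher by 2.08, GATA3 by 1.89, and TFAP2C lower, at -2.91, in resistant cells with DMSO (adjusted p = 0.00016, 0.019 and 0.0011). TFAP2C passed the filter only through parental libraries. These 3 transcription factors are also expressed outside the placenta.

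For each member that passed the filter, the genes most like it over the 8 libraries were taken by Pearson r on log2(FPKM + 0.1), among 11345 or 11346 genes of at least 1 FPKM on average. The 8 points fall into 4 groups of replicates, so these values describe group patterns. Pearson r takes no account of the size of a change. With DAC in parental cells mean FPKM went from 0.317 to 7.26 for ERVH48-1. For the 3 genes most like it, it went from 10.1 to 16.3 (KDM2A), 3.39 to 7.05 (GNPTG) and 2.18 to 17.2 (C3AR1). ERV3-1 was closest to PSAP (0.9985), CCT7 (0.998) and CSF1R (0.9977), the macrophage growth factor receptor of the monocytic list. ERVH48-1 was closest to KDM2A (0.9973), GNPTG (0.9973) and C3AR1 (0.997), and ERVMER34-1 to ICAM5 (0.9977), BCL2L11 (0.9971) and ABT1 (0.9971). ERVK3-1 was closest to ARIH2 (0.9933), IQSEC1 (0.9849) and MALSU1 (0.982). Values were lower for ERVW-1, with PGBD4 (0.9746), F13A1 (0.9556) and GK5 (0.9551), and for ERVK13-1, with COMMD1 (0.9316), ZNF222 (0.9299) and CCDC130 (0.9124).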

How the data were processed

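RNA-seq libraries of 4 groups, each with 2 replicates, were analysed. An mRNA library kit was used on total RNA. The submitters' processing notes name FastQC, cutadapt 1.9.1, HISAT2 2.1.0, SAMtools 1.6 and HTSeq 0.13.5, and the authors aligned to hg38 and counted Ensembl genes and RepeatMasker families. The authors deposited FPKM values multiplied by 1000, for 60664 genes and 1264 repeat families. Totals used for scaling differed between families and genes. The strand setting is not given in the sources used here.

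From the deposited FPKM, log2(FPKM + 0.1) values of the 26751 genes that reached 0.1 FPKM in 2 or more libraries were fitted with limma 3.58.1 (R 4.3.3) as 4 group means with a mean-variance trend, and p-values were adjusted by Benjamini-Hochberg over all genes. A separate fit on log2(deposited value + 1) served the families. No count test was the main one, since the unit was FPKM. Recovered reads used exon lengths (GENCODE v44 on the same build): 86.7% of values above 0 were whole within 0.01 read, 4437 of 39592 genes needed another whole length and 261 were solved only approximately. For ERVH48-1, ERVK13-1 and ERVK3-1 reads rest on such inferred lengths (2790, 11465 and 5023 bases, against 2774, 12271 and 6117 annotated). Intervals on reads cover counting error only. The replicates differed by more than sampling noise. The fits were tested on simulated data. Figures were drawn with matplotlib 3.10.9 under Python 3.11.15.

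Named were all 7 members, the tested neighbours with results, for other lists at most 4 genes per comparison with an adjusted p under 0.05 and a log2 change of at least 1, and the 3 genes most like each tested member. SLC1A5, SLC1A4, MFSD2A, FURIN, GCM1, DNMT1, TRIM28, SETDB1, SPI1, CD14, CD33, HBB, CD3E, MS4A1, HBA1, CGA, HSD3B1, PSG1, LDOC1, RTL9, ASPRV1, NYNRIN and ERVV-1 are named outside this rule for their roles or after their values were seen. 1 neighbour and 2 marker genes are not reported here. The members, although picked by name, and the gene lists were chosen with earlier results of these data known. Alternatives were other pseudocounts, filters, scalings, call rules, voom on recovered reads, a replicate block, the compared libraries alone and leaving out each library.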

Additional observations from a re-analysis of the deposited data

Results flagged for a closer look

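The change with DAC differed between parental and DAC-resistant cells for 2 of the members by a test of the difference itself (the interaction term of the limma fit). For ERV3-1 the DAC effect in resistant cells minus that in parental cells was -1.27 on the log2 scale (adjusted p = 0.00014), from a change of 1.02 in parental and -0.24 in resistant cells. For ERVH48-1 it was -4.61 (adjusted p = 0.00057), from 4.15 in parental and -0.46 in resistant cells. Both effects were in opposite directions in the 2 lines, although neither change in resistant cells passed the test (adjusted p = 0.063 and 0.50). The change of ERVH48-1 in resistant cells rests on 25 reads with DMSO and 14 with DAC. Their ratio of shares of library reads was 0.552 (exact 95% interval 0.265 to 1.1, counting error only). That change was -0.73 to -0.20 when 1 library was left out and -0.91 to -0.085 over the alternatives.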

How the results depend on the processing

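Of 589 alternative values for the members over 20 settings, 555 kept their direction and their side of the threshold. ERV3-1 and ERVH48-1 with DAC in parental cells, ERV3-1 and ERVMER34-1 between the lines, and both differences of DAC effects were called under every one of these settings in which they were run. The number of members called with DAC in resistant cells was 0 and became 1 with a filter of 1 FPKM, alone or with a pseudocount of 1 (ERV3-1, -0.24 and -0.21, adjusted p = 0.037 and 0.045); fewer genes were tested there. ERVK3-1 between the lines with DMSO was lost under an unadjusted p of at most 0.01 with a log2 change of at least 1. Without a filter ERVFRD-1 was called with DAC in parental cells (0.65, adjusted p = 0.013), between the lines with DAC (-0.78, adjusted p = 0.0055) and for the difference (-0.79, adjusted p = 0.028), on 0 to 8 reads per library.

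The 21 values that changed sign belonged to changes that were not called. For ERVK13-1 these were -0.085 and -0.0601 with DAC in parental cells under quantile and upper-quartile scaling, 0.0097 and 0.041 between the lines with DMSO and DAC under TPM, 0.11 with DAC under quantile scaling, and 0.031, 0.12 and 0.087 for the difference under TPM, quantile and upper-quartile scaling. Under quantile scaling ERVMER34-1 with DAC in resistant cells was -0.0069 and ERVW-1 between the lines with DAC 0.053. Leaving out 1 library each gave -0.0073 to 0.12 for ERVK13-1 with DAC in parental cells, -0.039 to 0.11 in resistant cells, -0.13 to 0.014 between the lines with DMSO and -0.095 to 0.050 for the difference. With DAC in resistant cells it gave -0.089 to 0.10 for ERVMER34-1 and -0.73 to 0.25 for ERVW-1. Families rescaled by gene reads gave -0.11 for HERV3-int between the lines with DMSO, and -0.00020 for MER48 and -0.089 for HERVK13-int with DAC; MER50 gave -0.0059 for the difference with FPKM + 1. The cause was not tested.

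Over all genes, DAC in resistant cells was the comparison that varied most: 1142 calls became 498 without a filter, 222 with only the compared libraries, 1876 with voom, and 141 to 704 when 1 library was left out. Calls by the unadjusted rule numbered 4002, 293, 3423 and 5551 in the 4 direct comparisons and 3509 for the difference, against 10379, 1142, 9601, 12590 and 8178. The median of all genes with DAC in parental cells was 0.11, and -0.08 after quantile scaling. With the replicate number as a block, the members called remained 2, 0, 3, 3 and 2 in number and calls over all genes with DAC in resistant cells fell to 580; replicate differences did not correlate between groups (-0.024 to 0.0075), so the numbers do not pair the libraries. Levels near 0.1 FPKM rest on fewer than 50 reads per library and set the limit for ERVW-1, ERVFRD-1 and parental ERVMER34-1.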
